A study of Homo sapiens and Mus musculus with 24 samples.

Results

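The genes described here are 53 genes of DNA replication and mitosis, taken by symbol from a list and measured in 12 RNA-seq libraries of MCF10A, a non-tumorigenic line of human mammary epithelium. All 53 were found, each under 1 of the 58434 gene identifiers in the tables, and all 53 passed the filter on low counts. They were kept in 2 sets, 30 genes that act in G1 and S phase (G1/S) and 23 that act in G2 and mitosis (G2/M). The rule that picks them uses no value of these libraries, but the list was drawn up with earlier results of these data known.

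There were 4 groups of 3 libraries. Knock-in cells, which carry PIK3CA H1047R on 1 allele, received BYL719 (alpelisib, an inhibitor of PI3K alpha) at 1 uM or its solvent DMSO, and the isogenic parental cells, wild type for PIK3CA, received the same treatments, all for 4 h. The lines were bought as a matched set. No label says whether the knock-in line is 1 clone, so genotype and line cannot be told apart. Nor does a label tie the libraries of a group to separate cultures, so the p-values measure the spread between these libraries, which may be technical. The mouse fibroblast libraries of the series carry no gene names in their tables and were not used here.

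Cells copy their DNA in S phase and divide it in mitosis. In G1, CDC6 and CDT1 load the MCM2-7 helicase onto origins, which is called licensing; cyclin E with CDK2, switched on by the phosphatase CDC25A, then helps to fire the origins, and E2F transcription factors, held back by RB1, RBL1 and RBL2, drive the genes of this step. In G2, MYBL2, FOXM1 and the MuvB complex drive a later set, among them the mitotic cyclins, Aurora and Polo kinases and motor proteins. Many of these are removed by the anaphase-promoting complex, a ubiquitin ligase, around the end of mitosis. PI3K alpha signals through AKT, which holds FOXO factors out of the nucleus and stabilises D cyclins, and its H1047R form is active without growth factor.

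Levels are given as CPM, the estimated read pairs of a gene scaled by the library total, and compared between genes only as TPM, which also divides by transcript length. The libraries held 120177015 to 162755457 estimated read pairs, and 10 of 10 markers of basal mammary epithelium were above 1 TPM in every library. The basal sums were 4147 to 4537 TPM in knock-in and 4694 to 5064 TPM in parental libraries. Other cell type lists summed to 5.90 to 9.51 TPM (luminal hormone receptor), 7.95 to 13.5 TPM (fibroblast), 16.4 to 21.8 TPM (haematopoietic), and 0.0812 to 0.276 TPM (adipocyte), with PGR, PTPRC, CD3E, VWF, CDH5 and ADIPOQ under 0.05 TPM in every library. Low sums of a further pair of lists moved with BYL719 without overlap. Neural and glial markers summed to 5.47 to 5.84 TPM under BYL719 and 2.28 to 3.36 TPM in DMSO in the knock-in line, against 4.43 to 5.27 TPM under BYL719 and 3.11 to 3.57 TPM in DMSO in the parental line. Endothelial markers summed to 0.554 to 0.685 TPM under BYL719 and 0.185 to 0.326 TPM in DMSO in the knock-in line, against 0.530 to 0.543 TPM under BYL719 and 0.296 to 0.315 TPM in DMSO in the parental line. The haematopoietic sum was also higher under BYL719 in the knock-in line, at 21.6 to 21.8 TPM, than in DMSO there, at 16.9 to 20.2 TPM. The part of these levels in the results was not tested. The knock-in DMSO library 2 stood apart. Its read pairs came from transcripts with a mean effective length of 2271 nt, against 2542 to 2655 nt in the other 11 libraries, and it lay at 58.6 on principal component 2, where the other libraries of its group lay at 15.4 and 17.9. The counts of called genes are also given without it.

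Among the 53 genes, mean TPM over the 12 libraries was highest for CCNB1 (402), the cyclin that activates CDK1 for mitosis, PCNA (344), the sliding clamp of the DNA polymerases, and RRM2 (336), the regulated subunit of ribonucleotide reductase. It was lowest for E2F8 (7.18) and E2F2 (7.91), a repressor and an activator of the E2F family, and CDK6 (12.1), a cyclin D kinase. In bulk RNA, fewer cells in a phase of the cycle and less RNA per cell cannot be told apart.

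BYL719 in the knock-in line moved 22 of the 53 genes at 4 h. These were 8 that rose and 14 that fell (edgeR quasi-likelihood test over 21079 genes, Benjamini-Hochberg adjusted p under 0.05), where 15.1% of all genes tested rose and 13.2% fell. Of the 30 G1/S genes 10 fell and 1 rose, with a median log2 fold change of -0.10, and of the 23 G2/M genes 4 fell and 7 rose, with a median of 0.06; the median over all genes was 0.02. With knock-in DMSO library 2 left out, 2 G1/S genes rose and 15 fell and 7 G2/M genes rose and 5 fell. Most called G1/S genes thus fell and most called G2/M genes rose; the difference between the sets was not tested. The sizes were modest, and only CDC25A moved by more than 1.5-fold. The 3 libraries under BYL719 did not overlap the 3 in DMSO for 30 of the 53 genes, where this held for 38.2% of all genes; without library 2 it held for 38 members and 52.8% of all genes. Fitted on these 2 groups alone, 13 members passed, all of them among the 22, where 2610 of 19995 genes did.

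**Figure D1:**
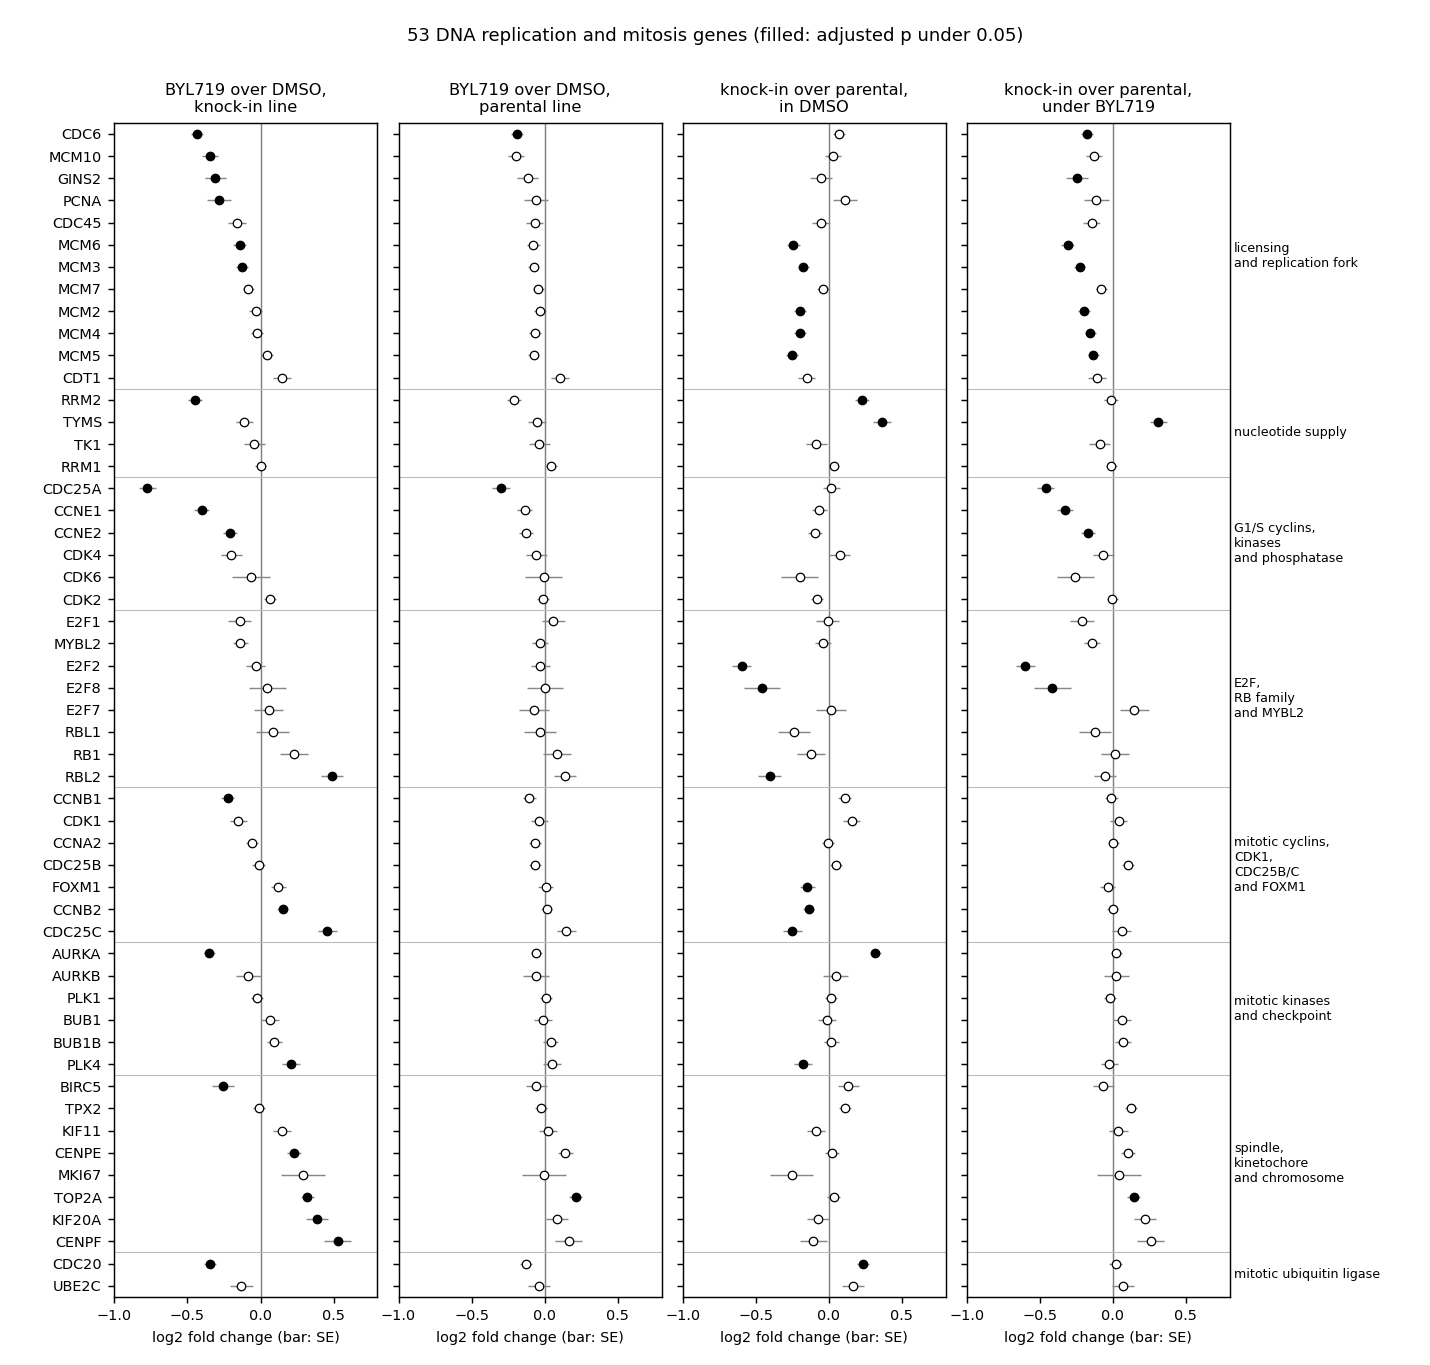
Log2 fold changes of the 53 genes in 4 comparisons (BYL719 over DMSO in the knock-in line and in the parental line, and knock-in over parental in DMSO and under BYL719), 1 row per gene, grouped by role. Points are estimates, bars are standard errors, and filled points had an adjusted p under 0.05. In the leftmost panel CDC25A lies farthest to the left at -0.77 and CENPF farthest to the right at 0.53, and in the rightmost panel all 12 licensing and replication fork genes lie below 0.

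CDC25A, the phosphatase that removes inhibitory phosphates from CDK2 and CDK1, fell most. It had 33.6, 30.8 and 29.2 CPM under BYL719 and 55.1, 48.5 and 56.1 CPM in DMSO in the knock-in line, against 42.96, 45.02 and 43.2 CPM under BYL719 and 54.4, 54.04 and 52.3 CPM in DMSO in the parental line. In each line the libraries under BYL719 were all below those in DMSO, and the lowest 3 of the 12 were the knock-in libraries under BYL719. In knock-in cells it was lower by 41.5% (log2 fold change -0.77, SE 0.059, adjusted p = 2.56e-06). CDC6, the ATPase that brings the MCM helicase to origins, had 100.5, 101 and 97.5 CPM under BYL719 and 139.9, 126 and 137 CPM in DMSO in the knock-in line, against 116, 116 and 112 CPM under BYL719 and 129, 131 and 132 CPM in DMSO in the parental line. The groups did not overlap within either line, and in knock-in cells CDC6 fell by 26.1% (log2 fold change -0.44, SE 0.042, adjusted p = 1.34e-05).

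Of the 12 licensing and replication fork genes, 6 fell and none rose, and without knock-in DMSO library 2, 8 fell and 1 rose. MCM10, which helps to start and hold the fork, had 56.5, 55.2 and 54.1 CPM under BYL719 and 74.7, 63.00 and 72.9 CPM in DMSO in the knock-in line (log2 fold change -0.35, SE 0.055, adjusted p = 0.000538), and its lowest DMSO library was library 2. With transcript-length offsets its adjusted p was 0.416. GINS2, a subunit of the replicative helicase, fell by 0.31 on the log2 scale (adjusted p = 0.00747), and PCNA by 0.28 (adjusted p = 0.023). PCNA had 278, 347 and 270.3 CPM in the knock-in DMSO libraries, and without library 2 the log2 fold change was -0.16 (adjusted p = 0.00061). MCM6 (-0.14, adjusted p = 0.0333) and MCM3 (-0.13, adjusted p = 0.0268), subunits of the helicase ring, fell by little, and MCM6 values overlapped between BYL719 and DMSO. The other ring subunits MCM2, MCM4, MCM5 and MCM7 had log2 fold changes of -0.03, -0.02, 0.04 and -0.08 and did not pass the test. CDT1 was the only licensing gene with an estimate above 0.1, at 0.15 (adjusted p = 0.089).

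Nucleotide supply split within 1 enzyme. RRM2 had 473, 435 and 451 CPM under BYL719 and 644, 576 and 632 CPM in DMSO in the knock-in line, against 471, 465 and 463 CPM under BYL719 and 529, 543 and 538 CPM in DMSO in the parental line. Libraries under BYL719 were below those in DMSO in each line, with a fall of 26.8% in knock-in cells (log2 fold change -0.45, SE 0.047, adjusted p = 2.76e-05). RRM1, the large subunit of the same reductase, had a log2 fold change of 0.00 there (adjusted p = 0.988). The RRM2 call was lost when transcript-length offsets were used (-0.22, adjusted p = 0.0998). The share of RRM2 pairs assigned to transcripts annotated as retaining an intron ranged over the libraries from 17.3% in knock-in DMSO library 2 to 43.9% in parental BYL719 library 1, and the part of that shift in the result was not tested. TYMS and TK1, which make and salvage thymidylate, did not pass the test (-0.11 and -0.04).

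Cyclin E fell through both of its genes. CCNE1 had 15.6, 15.3 and 14.8 CPM under BYL719 and 20.02, 20.3 and 19.8 CPM in DMSO in the knock-in line, against 19.7, 19.00 and 19.7 CPM under BYL719 and 21.5, 20.2 and 22.3 CPM in DMSO in the parental line. The knock-in libraries under BYL719 were the lowest 3 of the 12, and CCNE1 fell in knock-in cells (log2 fold change -0.40, SE 0.053, adjusted p = 0.000149). CCNE2 fell less, with 29.8, 30.8 and 30.7 CPM under BYL719 and 35.2, 33.5 and 36.4 CPM in DMSO in the knock-in line (log2 fold change -0.21, SE 0.048, adjusted p = 0.00677), and lost its call with length offsets (adjusted p = 0.324). Their kinase CDK2 (0.07) and the cyclin D kinases CDK4 (-0.20) and CDK6 (-0.07) did not pass the test, so within the 6 genes of this step 3 fell, or 5 without knock-in DMSO library 2.

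Of 8 genes of the E2F and RB families with MYBL2, 1 passed the test, or 2 without knock-in DMSO library 2. RBL2, the p130 pocket protein that joins E2F4 and MuvB in resting cells, had 76.2, 75.9 and 76.2 CPM under BYL719 and 59.8, 44.5 and 57.9 CPM in DMSO in the knock-in line, against 79.2, 80.96 and 81.1 CPM under BYL719 and 73.3, 72.5 and 72.7 CPM in DMSO in the parental line. The knock-in DMSO libraries were the lowest 3 of the 12, library 2 the lowest of all, and the knock-in libraries under BYL719 lay between those of parental DMSO and parental BYL719 (log2 fold change 0.49, SE 0.077, adjusted p = 0.000565; 0.36 without library 2). RB1 (0.23, adjusted p = 0.0946), RBL1 (0.08), E2F1 (-0.14), E2F2 (-0.03), E2F7 (0.06), E2F8 (0.05) and MYBL2 (-0.14) did not pass the test.

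**Figure D2:**
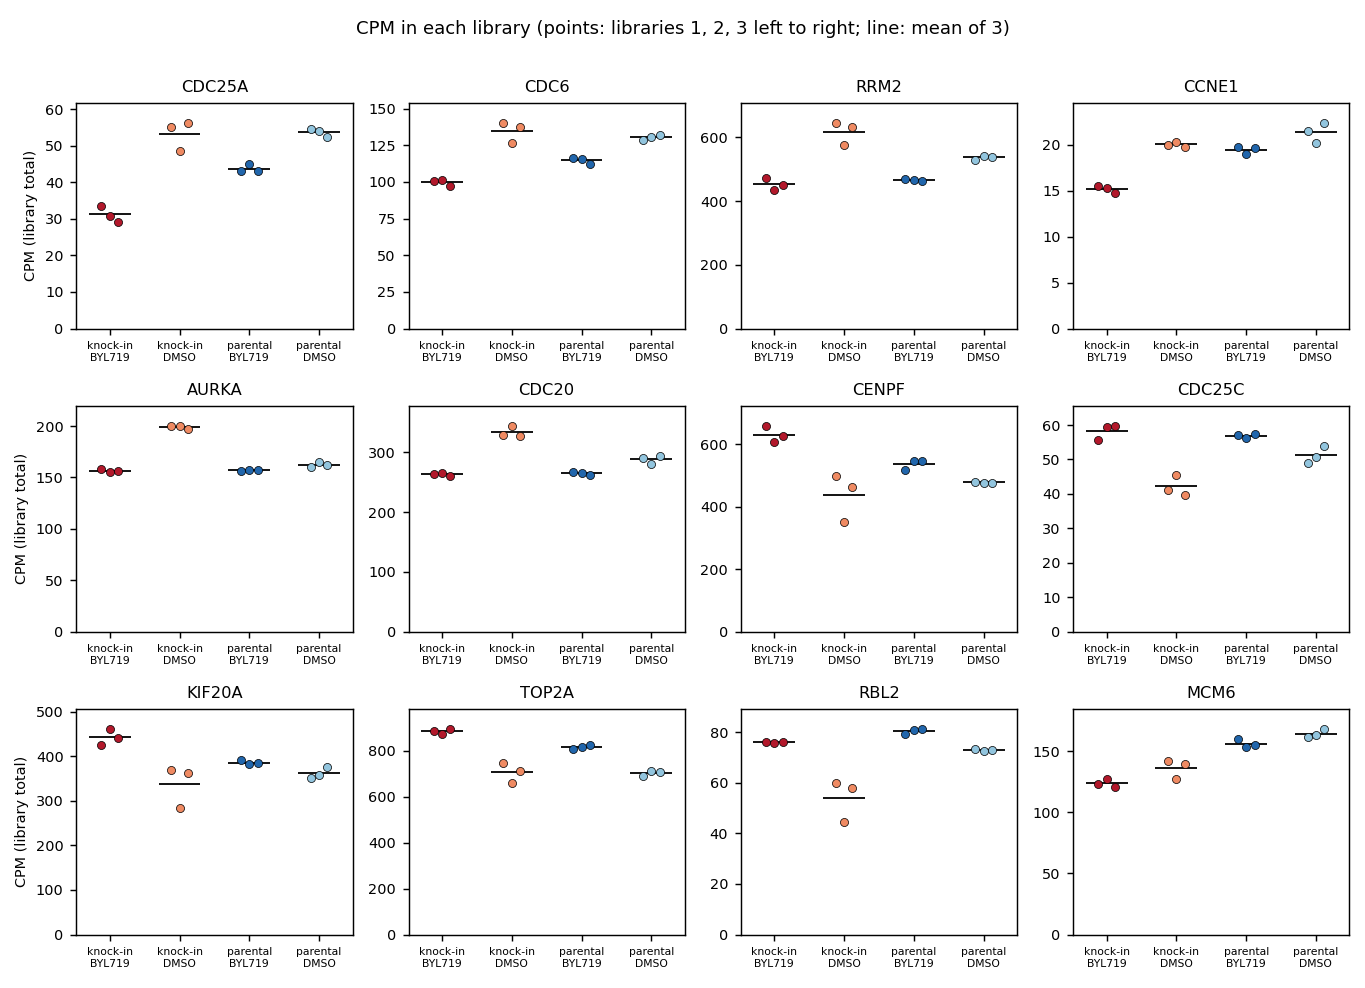
CPM of 12 of the genes in each of the 12 libraries, with knock-in BYL719, knock-in DMSO, parental BYL719 and parental DMSO from left to right. Points are libraries 1, 2 and 3 and the line is their mean. CDC25A, CDC6, RRM2, CCNE1, AURKA and CDC20 were lower under BYL719 than in DMSO in every knock-in library, CENPF, CDC25C, KIF20A, TOP2A and RBL2 were higher, and MCM6 overlapped.

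Among the G2/M genes the 4 that fell were AURKA, CDC20, CCNB1 and BIRC5. AURKA, the centrosome and spindle kinase, had 158, 156 and 156 CPM under BYL719 and 199.8, 199.8 and 197 CPM in DMSO in the knock-in line, against 156, 158 and 157 CPM under BYL719 and 160.4, 165 and 162 CPM in DMSO in the parental line. The knock-in DMSO libraries stood above all others, which lay within 156 to 165 CPM (log2 fold change -0.35, SE 0.036, adjusted p = 2.71e-05). CDC20, the activator of the anaphase-promoting complex, had 264, 266 and 260.0 CPM under BYL719 and 329, 343 and 327 CPM in DMSO in the knock-in line, against 267, 265 and 262 CPM under BYL719 and 291, 281 and 293 CPM in DMSO in the parental line. It was lower under BYL719 in every library of each line, and fell in knock-in cells by 21.3% (log2 fold change -0.35, SE 0.042, adjusted p = 8.83e-05). CCNB1 had 368, 359 and 356 CPM under BYL719 and 416, 437 and 407 CPM in DMSO in the knock-in line, groups that did not overlap (log2 fold change -0.23, SE 0.044, adjusted p = 0.00252). BIRC5, the survivin subunit of the chromosomal passenger complex, fell by 0.26 on the log2 scale (adjusted p = 0.0204), with 179, 217 and 178 CPM in the knock-in DMSO libraries, and by 0.16 without library 2 (adjusted p = 0.00108).

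The 7 G2/M genes that rose were CENPF, CDC25C, KIF20A, TOP2A, CENPE, PLK4 and CCNB2. CENPF, a large kinetochore protein, had 658, 608 and 628 CPM under BYL719 and 498, 350.3 and 462 CPM in DMSO in the knock-in line, against 517, 548 and 548 CPM under BYL719 and 481, 476 and 478 CPM in DMSO in the parental line. The knock-in libraries under BYL719 were the highest 3 of the 12 (log2 fold change 0.53, SE 0.091, adjusted p = 0.00104), and the value was 0.39 without knock-in DMSO library 2. CDC25C, the phosphatase that activates CDK1 at mitotic entry, had 55.5, 59.5 and 59.6 CPM under BYL719 and 41.2, 45.6 and 39.8 CPM in DMSO in the knock-in line, against 57.1, 56.1 and 57.4 CPM under BYL719 and 48.9, 50.6 and 53.9 CPM in DMSO in the parental line; the knock-in DMSO libraries were the lowest and did not overlap any other group (log2 fold change 0.46, SE 0.065, adjusted p = 0.000262). KIF20A, a kinesin of the central spindle, had 426, 461 and 441 CPM under BYL719 and 369, 284 and 362 CPM in DMSO in the knock-in line (log2 fold change 0.38, SE 0.075, adjusted p = 0.00242). TOP2A, the topoisomerase that untangles chromosomes, had 887, 875 and 893 CPM under BYL719 and 746, 660.2 and 714 CPM in DMSO in the knock-in line, against 808, 817 and 825 CPM under BYL719 and 689.6, 711 and 709 CPM in DMSO in the parental line. It was higher under BYL719 in every library of each line (log2 fold change 0.32, SE 0.044, adjusted p = 0.000196 in knock-in cells), and with length offsets the knock-in call was lost (adjusted p = 0.0752). CENPE, a kinetochore motor, had 211, 216 and 222 CPM under BYL719 and 193, 171 and 188 CPM in DMSO in the knock-in line (log2 fold change 0.23, SE 0.048, adjusted p = 0.00379).

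The last of these to pass were PLK4, the kinase of centriole duplication (0.21, adjusted p = 0.024), and CCNB2, another mitotic cyclin (0.15, adjusted p = 0.0102). PLK4 moved to 0.11 without knock-in DMSO library 2 (adjusted p = 0.0136). CCNB1 and CCNB2 thus passed the test in opposite directions. Of the 12 G2/M genes that did not pass, PLK1 (-0.03), BUB1 (0.06), TPX2 (-0.01), CDC25B (-0.01) and CCNA2 (-0.06) were within 0.1 of 0. MKI67, the proliferation marker Ki-67, had 739, 668 and 669 CPM under BYL719 and 685, 380.1 and 631 CPM in DMSO in the knock-in line, where DMSO library 2 lay far below the others (log2 fold change 0.29, SE 0.15, adjusted p = 0.17; 0.07 without it).

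Summed over the set, the G1/S genes had 3808 ± 50.8 CPM under BYL719 and 4163 ± 60.4 CPM in DMSO in the knock-in line, against 4165 ± 39.7 CPM under BYL719 and 4336 ± 31.3 CPM in DMSO in the parental line (SD, n = 3 each). Libraries under BYL719 were all below those in DMSO within each line. The G2/M genes summed to 6106 ± 47.1 CPM under BYL719 and 5624 ± 366 CPM in DMSO in the knock-in line, against 5866 ± 47.7 CPM under BYL719 and 5722 ± 55.6 CPM in DMSO in the parental line. In knock-in DMSO library 2 had 5209 CPM, while libraries 1 and 3 had 5904 and 5758 CPM, both below the 3 knock-in libraries under BYL719. The G2/M roles went different ways in the knock-in line. The 8 spindle, kinetochore and chromosome genes had mean sums of 3631 CPM under BYL719 and 3004 CPM in DMSO. The other roles were lower under BYL719: mitotic cyclins, CDK1, CDC25B/C and FOXM1 (1349 against 1391 CPM), mitotic kinases and checkpoint (779 against 804 CPM) and mitotic ubiquitin ligase (347 against 425 CPM). Such sums are weighted to abundant genes. Mean levels in the knock-in line, BYL719 then DMSO, were 885 and 707 CPM for TOP2A and 692 and 565 CPM for MKI67, which did not pass the test. They were 631 and 437 CPM for CENPF and 442 and 338 CPM for KIF20A. Of the 23 G2/M log2 fold changes there, 12 were above 0 and 11 below.

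**Figure D3:**
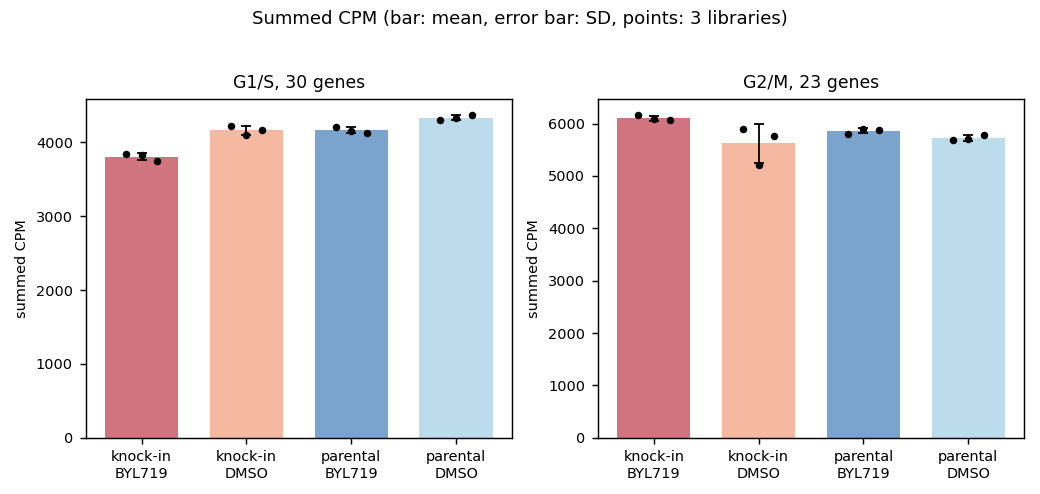
Summed CPM of the 30 G1/S genes and the 23 G2/M genes in each group, axes from 0. Bars are means of 3 libraries, error bars are SD and points are libraries. The G1/S sum was lowest in knock-in cells under BYL719, at 3808 CPM, and the G2/M sum was highest there, at 6106 CPM. Of the G2/M roles, only the spindle, kinetochore and chromosome genes had a higher mean sum there than in knock-in DMSO. Of the 23 G2/M log2 fold changes with BYL719 in the knock-in line, 12 were above 0 and 11 below.

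The promoters of the genes that moved are shown because the sets share sequence features that the choice of genes did not use. RefSeq (GRCh38.p14) gave a promoter for 43 of the 53 genes, and the first listed start of each was searched over 300 bases, 250 before to 50 after the start, on both strands. An E2F motif (TTTGGCGC, TTTGCCGC, TTTCGCGC, TTTCCCGC or TTCCCGCC, which can overlap each other) was in 14 of 25 G1/S promoters (56.0%) and 2 of 18 G2/M promoters (11.1%), beside 5.57% of the first listed promoters of 27305 genes. A cell cycle homology region (CHR, TTTGAA or TTTAAA), bound by MuvB, was in 5 of 25 and 13 of 18 (72.2%), beside 24.3% of all, and an NF-Y box (CCAAT) in 13 of 25 (52.0%) and 13 of 18 (72.2%), beside 35.7%. The CHR motif was in 6 of 7 promoters of G2/M genes that rose with BYL719 in knock-in cells and in 2 of 2 of those that fell, so it did not divide them by direction. Below, bases -100 to +30 around the start are given 5′ to 3′, with matches in capitals, for CDC25A at chr3:48188388-48188517 (minus strand), CDC6 at chr17:40287779-40287908 (plus strand) and RRM2 at chr2:10122639-10122768 (plus strand), which fell, CCNB1 at chr5:69167050-69167179 (plus strand) and CDC20 at chr1:43358881-43359010 (plus strand), G2/M genes that fell, and KIF20A at chr5:138179012-138179141 (plus strand) and TOP2A at chr17:40417867-40417996 (minus strand), which rose.
CDC25A: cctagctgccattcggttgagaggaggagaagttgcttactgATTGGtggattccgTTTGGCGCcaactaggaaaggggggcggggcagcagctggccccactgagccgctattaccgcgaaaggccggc
CDC6: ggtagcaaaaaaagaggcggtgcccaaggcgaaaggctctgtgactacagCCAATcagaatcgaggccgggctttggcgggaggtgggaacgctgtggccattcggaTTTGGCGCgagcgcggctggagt
RRM2: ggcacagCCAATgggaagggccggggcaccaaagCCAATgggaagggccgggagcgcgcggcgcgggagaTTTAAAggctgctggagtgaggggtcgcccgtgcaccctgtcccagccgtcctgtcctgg
CCNB1: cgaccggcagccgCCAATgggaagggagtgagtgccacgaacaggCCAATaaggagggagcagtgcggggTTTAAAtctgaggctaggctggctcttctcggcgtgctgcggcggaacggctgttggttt
CDC20: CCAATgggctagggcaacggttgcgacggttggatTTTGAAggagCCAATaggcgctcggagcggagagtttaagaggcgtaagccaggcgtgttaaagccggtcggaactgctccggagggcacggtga
KIF20A: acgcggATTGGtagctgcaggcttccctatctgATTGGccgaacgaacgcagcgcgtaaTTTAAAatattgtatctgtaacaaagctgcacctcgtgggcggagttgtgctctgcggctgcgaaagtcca
TOP2A: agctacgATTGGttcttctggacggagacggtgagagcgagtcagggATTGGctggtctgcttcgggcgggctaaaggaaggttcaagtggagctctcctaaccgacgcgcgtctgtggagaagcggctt
CDC25A and CDC6 hold the same E2F letters, TTTGGCGC, and an NF-Y box each within this stretch. RRM2, a G1/S gene, has a CHR and a pair of NF-Y boxes, as CCNB1 does. CCNB1 and CDC20, which fell, and KIF20A, which rose, each hold NF-Y boxes and a CHR. The CHR matches of TOP2A lie before the stretch shown.

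BYL719 in the parental line passed the test for 3 of the 53 genes, 1 that rose and 2 that fell, where 0.844% of all genes rose and 0.588% fell; 11 had an unadjusted p under 0.05. CDC25A fell by 18.7% (log2 fold change -0.30, SE 0.059, adjusted p = 0.0281), CDC6 by 12.3% (log2 fold change -0.19, SE 0.042, adjusted p = 0.0478), and TOP2A rose by 15.8% (log2 fold change 0.21, SE 0.044, adjusted p = 0.0363). Each of the 3 passed with the same sign in knock-in cells, and its values by library are given above. Over 18 alternative settings CDC25A lost its call in 8, CDC6 in 12 and TOP2A in 12, and each lost it with length offsets (adjusted p = 0.26, 0.146 and 0.245). Without knock-in DMSO library 2, which is not part of this comparison but shares its estimate of the spread, 13 genes passed, where 9.17% of all genes did. With the parental groups fitted alone 19 passed, where 3484 of 20114 genes did. None passed when any 1 of the 6 parental libraries was left out, where 73 to 134 of 21516 to 21570 genes did. RRM2 (-0.21, adjusted p = 0.0529) and MCM10 (-0.19, adjusted p = 0.121) came next. The libraries of the groups did not overlap for 33 of the 53 genes, beside 31.5% of all genes.

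The estimates in the 2 lines, which share no library, ran side by side. Over the 53 genes their sign was the same in 45, and the size was larger in the knock-in line in 46, with Pearson's r 0.891 and Spearman's rho 0.833 across genes, which are not independent replicates; without knock-in DMSO library 2 those counts were 45 and 42. The same counts were not made over all genes, of which 28.3% passed with BYL719 in the knock-in line and 1.43% in the parental line. Whether the pattern is particular to the members was therefore not tested. The test of the difference itself passed for 3 genes, none higher and 3 lower in the knock-in line, where 2.08% of all genes passed upward and 0.797% downward, and 11 members had an unadjusted p under 0.05. For AURKA the effect of BYL719 was -0.35 in knock-in and -0.06 in parental cells (difference -0.29, SE 0.051, adjusted p = 0.0106), and this call stood in all 17 alternatives. For CDC25A it was -0.77 and -0.30 (difference -0.48, SE 0.084, adjusted p = 0.0107; 0.0715 with length offsets). For CDC6 it was -0.44 and -0.19 (difference -0.25, SE 0.059, adjusted p = 0.0453), a call lost in 12 of 17 alternatives. RBL2 (0.35), CENPF (0.36), CDC25C (0.31) and KIF20A (0.30) had positive differences that did not pass (adjusted p = 0.117, 0.168, 0.102 and 0.173). Without knock-in DMSO library 2, 11 members passed, where 8.71% of all genes did.

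**Figure D4:**
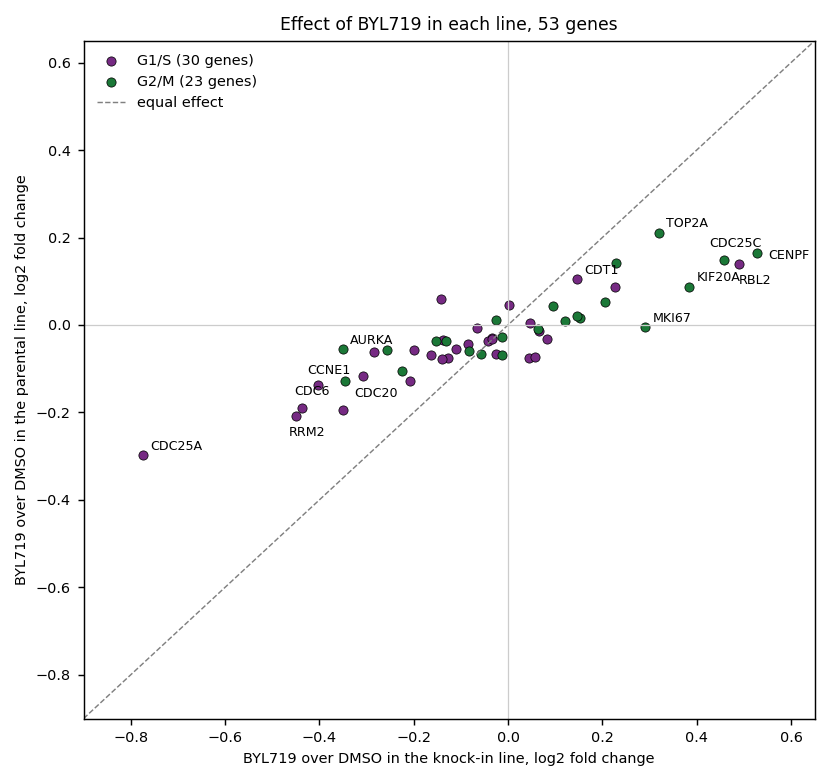
Log2 fold change of each of the 53 genes with BYL719 over DMSO in the knock-in line (x axis) and in the parental line (y axis), with the dashed line where both are equal. Points lie nearer to 0 on the y axis for 46 genes, and CDC25A is at the lower left at -0.77 and -0.30.

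In DMSO, 16 of the 53 genes differed between the lines, 4 higher and 12 lower in knock-in cells, where 17.0% of all genes were higher and 17.2% lower. Of the G1/S genes 2 were higher and 8 lower, and of the G2/M genes 2 were higher and 4 lower. Leaving out knock-in DMSO library 2, the counts were 4 higher and 12 lower of the G1/S genes and 4 higher and 4 lower of the G2/M genes. Non-overlapping groups were found for 23 members, beside 45.7% of all genes, and for 38 members without library 2, beside 61.9%. E2F2, an E2F activator, was lowest in proportion and had 21.8, 25.2 and 23.4 CPM under BYL719 and 26.3, 22.3 and 23.2 CPM in DMSO in the knock-in line, against 35.9, 36.5 and 36.04 CPM under BYL719 and 36.3, 35.9 and 38.3 CPM in DMSO in the parental line. All 6 knock-in libraries were below all 6 parental ones (log2 fold change -0.59, SE 0.066, adjusted p = 2.14e-05 in DMSO), and BYL719 moved it in neither line (-0.03 and -0.03, neither past the test). E2F8, a repressor of E2F targets, had 16.3, 10.2 and 15.6 CPM in knock-in cells and 19.3, 19.5 and 19.97 CPM in parental cells in DMSO (log2 fold change -0.46, SE 0.12, adjusted p = 0.0136; -0.28 without knock-in library 2). RBL2 was lower too (-0.40, adjusted p = 0.0015), so an activator, a repressor and a pocket protein were lower, with E2F1 at -0.01 and RB1 at -0.12 not passing.

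TYMS, thymidylate synthase, went the other way and was the member most raised in knock-in cells. It had 151, 159 and 139 CPM under BYL719 and 156, 172 and 154 CPM in DMSO in the knock-in line, against 123, 122 and 123 CPM under BYL719 and 125, 128 and 129 CPM in DMSO in the parental line. The 6 knock-in libraries were above the 6 parental ones (log2 fold change 0.37, SE 0.061, adjusted p = 0.000584 in DMSO). AURKA (0.32, adjusted p = 2.91e-05), CDC20 (0.24, adjusted p = 0.000928) and RRM2 (0.23, adjusted p = 0.00247) were the other members higher in knock-in cells, and all 3 fell there with BYL719, a comparison that shares the knock-in DMSO libraries. RRM2 had a difference of 0.03 with length offsets (adjusted p = 0.836). The exons of TYMS overlap ENOSF1 on the opposite strand, which had up to 40.6 CPM, and reads of such pairs cannot be told apart unless the library is stranded, which no label states. In all, 17 of the 53 genes have exons overlapped from the opposite strand, CDC25C, GINS2, CCNE2 and KIF20A among them.

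Of the 6 genes of the helicase ring, 5 were lower in knock-in cells in DMSO. MCM5 had 147, 153 and 149 CPM under BYL719 and 147, 143 and 144 CPM in DMSO in the knock-in line, against 172, 167 and 163 CPM under BYL719 and 177, 173 and 178 CPM in DMSO in the parental line (log2 fold change -0.25, SE 0.039, adjusted p = 0.000305 in DMSO). MCM6 had 123, 128 and 121 CPM under BYL719 and 142, 127 and 139.5 CPM in DMSO in the knock-in line, against 161, 154 and 155 CPM under BYL719 and 162, 163 and 168 CPM in DMSO in the parental line (log2 fold change -0.24, SE 0.045, adjusted p = 0.0011 in DMSO). For each, the knock-in DMSO libraries were all below the parental DMSO libraries. MCM2 (-0.19, adjusted p = 0.00346), MCM3 (-0.17, adjusted p = 0.00379) and MCM4 (-0.19, adjusted p = 0.00249) were lower as well, while MCM7 (-0.04), which shares the ring, did not pass. Over the libraries, the share of MCM7 pairs assigned to intron-retaining transcripts ranged from 38.8% (parental DMSO library 1) to 56.6% (knock-in DMSO library 2). The part of that share in the result was not tested. The MCM4 call was lost with length offsets (adjusted p = 0.301). CDC25C (-0.25, adjusted p = 0.0103), PLK4 (-0.18, adjusted p = 0.0393), FOXM1 (-0.15, adjusted p = 0.0425) and CCNB2 (-0.14, adjusted p = 0.0138) completed the genes that were lower. FOXM1, a driver of G2/M transcription, lost that call in 13 of 18 alternatives and PLK4 in 10. When knock-in DMSO library 2 was left out, the log2 fold changes were -0.10 for FOXM1 and -0.10 for PLK4.

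Under BYL719, 14 members differed between the lines, 2 higher and 12 lower in knock-in cells, where 11.4% of all genes were higher and 10.9% lower. The count was 28 with these groups fitted alone, where 6745 of 20336 genes passed. It was 9 without parental BYL719 library 1 (3565 of 21553 genes) or without knock-in BYL719 library 3 (3746 of 21511 genes). All 12 that were lower were G1/S genes, of 30, and the G1/S median was -0.14; among the 23 G2/M genes TOP2A alone passed and was higher (0.14, adjusted p = 0.0334, lost in 14 of 18 alternatives). All 12 licensing and fork genes had estimates below 0, from -0.31 for MCM6 to -0.08 for MCM7, and 7 passed: MCM6 (-0.31, adjusted p = 0.000244), GINS2 (-0.24, adjusted p = 0.0288), MCM3 (-0.23, adjusted p = 0.000823), MCM2 (-0.20, adjusted p = 0.00426), CDC6 (-0.18, adjusted p = 0.00821), MCM4 (-0.15, adjusted p = 0.0145) and MCM5 (-0.13, adjusted p = 0.0267). CDC25A (-0.46, adjusted p = 9.55e-05), CCNE1 (-0.33, adjusted p = 0.000548) and CCNE2 (-0.17, adjusted p = 0.0209) were lower too, as were E2F2 (-0.60, adjusted p = 2.46e-05) and E2F8 (-0.41, adjusted p = 0.0313), and TYMS was higher (0.31, adjusted p = 0.00248). AURKA (0.02), CDC20 (0.02), RBL2 (-0.05) and CDC25C (0.06), which differed between the lines in DMSO, did not pass here, with adjusted p = 0.723, 0.828, 0.701 and 0.595. This comparison uses the same knock-in libraries under BYL719 as the effect of BYL719 in that line. Of the G1/S calls here, those of GINS2 and E2F8 were lost in 6 of 18 alternatives and those of MCM5 and CCNE2 in 5. MCM4 lost its call with length offsets (adjusted p = 0.438), and 4 of the 12 licensing and fork genes passed with them. Without knock-in DMSO library 2, a library outside this comparison that shares its estimate of the spread, 2 G1/S genes were higher and 22 lower. Of the G2/M genes 6 were then higher and 1 lower, where 34.6% of all genes passed.

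Transcript length moved with several of these comparisons. Across the 53 genes the log2 fold change with BYL719 in knock-in cells had r = 0.414 with log2 effective length, and r = 0.374 across 9838 genes above 10 CPM; in the parental line r was 0.321 and 0.210. Knock-in against parental gave -0.467 and -0.237 in DMSO, but -0.061 and 0.007 under BYL719. The difference of the BYL719 effects between the lines gave 0.427 and 0.412. These are correlations across genes that share libraries. When effective length was entered as an offset, 18 members in place of 22 passed for BYL719 in knock-in cells, 17 of them shared, and 10 in place of 14 for the lines under BYL719, 9 of them shared. Over all 21079 genes, 4564 in place of 5964 passed for BYL719 in knock-in cells and 3562 in place of 4709 for the lines under BYL719. That offset is the length of a gene in a library relative to its own mean over the libraries. It does not remove a trend with length across genes, so calls that stood were not corrected for these correlations. Leaving out knock-in DMSO library 2 gave 29 for BYL719 in knock-in cells, all 22 among them, where 32.4% of all genes passed. It gave 24 between the lines in DMSO, where 38.9% did, and 31 under BYL719, where 34.6% did. Those counts include the original 16 and 14.

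**Figure D5:**
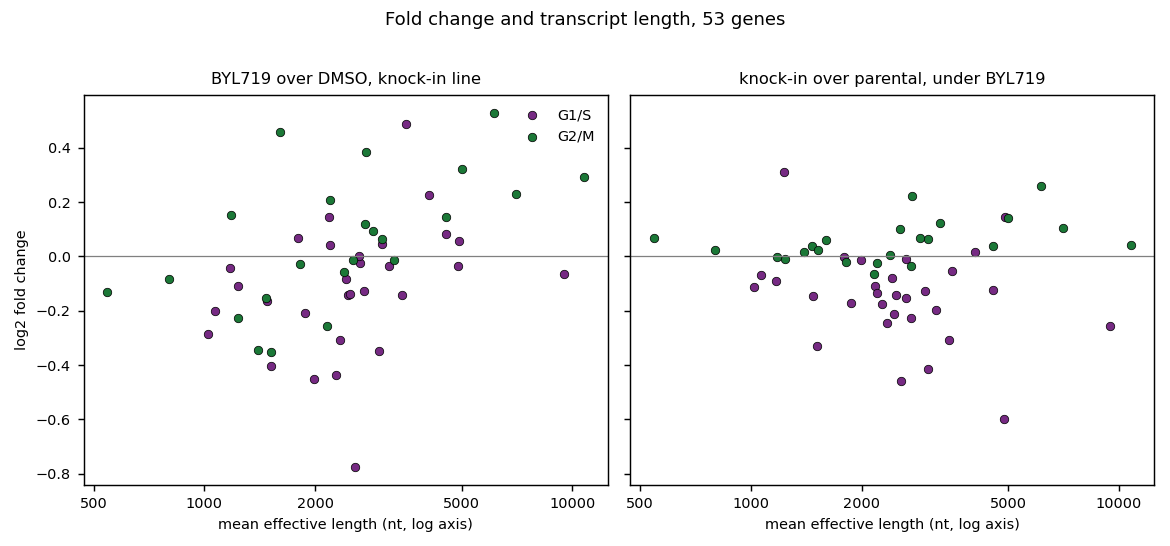
Log2 fold change against mean effective length (log axis) for the 53 genes. For BYL719 in the knock-in line the long genes such as CENPF tended to lie higher (r = 0.414), and for knock-in over parental under BYL719 no such slope was seen (r = -0.061).

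Other genes of the same steps, from lists chosen with earlier results of these data known, are given beside the members. Of 50 other replication genes 1 rose and 23 fell (46.0%) with BYL719 in knock-in cells, where 13.2% of all genes fell, with a median log2 fold change of -0.12, and none passed in parental cells, where 14 had an unadjusted p under 0.05. When knock-in DMSO library 2 was left out, 3 rose and 27 fell in knock-in cells and 15 fell in parental cells. Of all 21525 genes tested then, 3327 rose and 3650 fell in knock-in cells, and 906 rose and 1067 fell in parental cells. TIPIN, which guards stalled forks, had 13.01 ± 0.593 CPM under BYL719 and 20.3 ± 1.54 CPM in DMSO in knock-in cells (SD, n = 3 each) (-0.65, adjusted p = 2.79e-05). FEN1, the flap nuclease of Okazaki fragments, had 116 ± 3.23 CPM under BYL719 and 165 ± 18.3 CPM in DMSO in knock-in cells (SD, n = 3 each) (-0.52, adjusted p = 0.00023). GINS1 (-0.50, adjusted p = 5.07e-05), a partner of GINS2, and GMNN (-0.47, adjusted p = 0.000561), the CDT1 inhibitor geminin, fell as well. Of 58 other mitosis genes 18 rose (31.0%) and 10 fell (17.2%), where 15.1% and 13.2% of all genes did, with a median of 0.06, and none passed in parental cells, where 5 had an unadjusted p under 0.05. With that library left out, 18 rose and 15 fell in knock-in cells, and 7 rose and 3 fell in parental cells. ASPM, a spindle pole protein, had 596 ± 15.3 CPM under BYL719 and 395 ± 104 CPM in DMSO in knock-in cells (SD, n = 3 each) (0.59, adjusted p = 0.00616), and HMGB2 (0.45), KIF14 (0.44) and HMMR (0.41) rose too. Between the lines in DMSO, 13 of the 50 replication genes were higher and 6 lower in knock-in cells, and 10 of the 58 mitosis genes were higher and 4 lower, that is 17.2% and 6.90%, beside 17.0% higher and 17.2% lower of all genes. Leaving out that library, these counts were 15 and 11 of the replication genes and 19 and 11 of the mitosis genes. Under BYL719 the counts were 1 higher and 9 lower of the replication genes and 7 higher and 2 lower of the mitosis genes, beside 11.4% higher and 10.9% lower of all genes; without knock-in DMSO library 2 they were 3 and 17, and 15 and 6.

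Some regulators of these steps had larger fold changes than any member. Of 11 other E2F and MuvB genes 3 rose and 5 fell with BYL719 in knock-in cells, where 15.1% of all genes rose and 13.2% fell. The E2F partner TFDP2 (0.53, adjusted p = 3.64e-06) and the MuvB subunit LIN54 (0.46, adjusted p = 0.00222) were higher, and E2F3 (-0.43, adjusted p = 0.000124) was lower. Of 8 CDK inhibitors and D cyclins tested of 10 listed, 1 rose and 4 fell, beside the same 15.1% and 13.2% of all genes. Cyclin D1, CCND1, had 96.4 ± 13.1 CPM under BYL719 and 183 ± 17.2 CPM in DMSO in knock-in cells (SD, n = 3 each) (-0.93, adjusted p = 2.10e-05), and it fell in parental cells as well (-0.63, adjusted p = 0.00634). The CDK inhibitor CDKN1B (p27) was the gene that rose (0.60, adjusted p = 6.75e-06), while CDKN1C (-1.04, adjusted p = 2.09e-05) and CDKN1A (-0.50, adjusted p = 1.47e-05) fell. In DMSO, CDKN1C (1.71), CDKN1A (0.90) and CCND1 (0.90) were all higher in knock-in than in parental cells. Of these 8 inhibitors and cyclins 5 were higher and 2 lower there, where 17.0% of all genes were higher and 17.2% lower. CCND2 was among the lower ones (-2.89, adjusted p = 0.000481), with low means of 0.0431 CPM in knock-in and 0.327 CPM in parental cells. Of 8 genes tied to quiescence or FOXO 7 rose in knock-in cells and 5 in parental cells, where 15.1% and 0.844% of all genes did. Among them was the atypical cyclin CCNG2, which had 120.0 ± 4.37 CPM under BYL719 and 47.2 ± 2.13 CPM in DMSO in knock-in cells (SD, n = 3 each) (1.34, adjusted p = 5.55e-09). The counts in knock-in cells without knock-in DMSO library 2 were 3 that rose and 6 that fell of the E2F and MuvB genes, 1 and 4 of the CDK inhibitors and D cyclins, and 7 and 0 of the genes tied to quiescence or FOXO. Over all 21525 genes tested in that setting, 3327 rose and 3650 fell.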

How the data were processed

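Total RNA of MCF10A cells was sequenced as paired reads of 150 nt, per the labels' protocols. Per the submitters' processing notes, reads were trimmed with Trim Galore 0.6.1 and cutadapt and quantified with Salmon 1.2.1 on GRCh38, and DESeq2 1.28.1 is named. Neither RNA selection nor strandedness was stated. The deposited tables give for each transcript an expected count (the authors' estimated number of read pairs) and TPM, which the authors scaled to a fixed sum per library, with lengths in nt. Reads shared by several transcripts were divided by the authors' estimate.

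These counts were added up per gene identifier and rounded to whole numbers. Levels are CPM by library total. All 12 libraries were fitted by 4 group means with edgeR 4.0.16 (robust quasi-likelihood, TMM, filterByExpr, 8 residual degrees of freedom) in R 4.3.3, two-sided. P-values were adjusted over 21079 genes (Benjamini-Hochberg), with a threshold of 0.05. Every adjusted p is from this test, except where length offsets or the lack of knock-in DMSO library 2 are named. Those are from the same test refitted in that setting, over 21525 genes where library 2 was left out. The 5 comparisons were knock-in against parental in DMSO and under BYL719, BYL719 against DMSO in each line, and the difference between those effects. Values by library were given for 20 members: the 15 with the smallest adjusted p among those called for BYL719 in either line or for the difference, and the 10 called with the largest fold change between the lines in DMSO, 5 of them in both; those of PCNA, BIRC5 and MKI67 were added after their values were seen. The members and lists were chosen with earlier results of these data known. Libraries of a group differed beyond sampling noise (chi-square over degrees of freedom 4.31 to 150), so none was counted as a duplicate. The scripts were tested on simulated data. Alternatives were DESeq2 1.42.0, RLE scaling, no filter, the compared groups alone, length offsets, a replicate block, TMM-scaled CPM and leaving out each library. Gene positions and overlaps came from GENCODE 29, a release other than that of the tables, and 10 members have a listed pseudogene, none above 0.267 CPM.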

Additional observations from a re-analysis of the deposited data

Results flagged for a closer look

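The effect of BYL719 differed between the lines, by the test of the difference itself (edgeR quasi-likelihood test, adjusted over all genes), for 3 of the 53 genes. The knock-in effect minus the parental effect was -0.25 on the log2 scale for CDC6, -0.48 for CDC25A and -0.29 for AURKA. All 3 fell further in knock-in cells. In AURKA the DMSO level was itself higher in knock-in cells, at 199 ± 1.52 CPM, than in parental cells, at 163 ± 2.51 CPM (SD, n = 3 each), and the levels under BYL719 were 157 ± 1.40 CPM in knock-in cells and 157 ± 0.750 CPM in parental cells. In CDC25A and CDC6 the knock-in and parental DMSO libraries overlapped and the knock-in libraries under BYL719 were the lowest. Without knock-in DMSO library 2 the differences were -0.29 for CDC6, -0.54 for CDC25A and -0.29 for AURKA.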

How the results depend on the processing

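Leaving out each library in turn gave 17 to 29 members past the threshold for BYL719 in knock-in cells (22 with all libraries), 0 to 13 for BYL719 in parental cells (3), 12 to 24 between the lines in DMSO (16), 9 to 31 between the lines under BYL719 (14) and 2 to 11 for the difference of the BYL719 effects (3). The highest count in each came without knock-in DMSO library 2, which for BYL719 in knock-in cells was equalled without knock-in DMSO library 1. Of 21505 to 21570 genes tested with 1 library out, 4237 to 6977 passed for BYL719 in knock-in cells. In parental cells 73 to 1973 passed, and between the lines 5759 to 8382 in DMSO and 3562 to 7442 under BYL719. For the difference 239 to 1874 did. With the compared groups fitted alone, the counts were 13 for BYL719 in knock-in cells, 19 in parental cells, 11 between the lines in DMSO and 28 under BYL719. Over all genes they were 2610 of 19995, 3484 of 20114, 5050 of 19987 and 6745 of 20336, in that order. In parental cells DESeq2 gave 5 (891 of 21070 genes), no low-count filter 1 (285 of 37942 genes) and effective-length offsets 0 (133 of 21079 genes). For the difference of effects DESeq2 gave 8 (1429 of 21070 genes) and length offsets 1 (272 of 21079 genes).

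Libraries with the same number deviated together by little. Their r was -0.073 to 0.081 over 18 pairs (median 0.032), against -0.074 to 0.076 over 36 pairs of unlike number (median -0.018). Whether a number marks a shared batch was not tested. With a replicate block the counts were 21 for BYL719 in knock-in cells, 0 in parental cells, 15 and 14 between the lines in DMSO and under BYL719, and 2 for the difference. Over all 21079 genes they were 5818, 213, 7104, 4510 and 443, in that order. Of the 42 calls of single members among the 20 given by library, 24 stood in every alternative and none changed sign; length offsets ended 13, more than any other setting. Causes were not tested. The mean CPM of those members moved by more than 1 SD in 11 of 80 values when scaled by TMM.

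Libraries of a group differed by more than counting noise, and each group has 3 of them.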
